A study of Homo sapiens with 2 samples.

Results

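The regions described here are the KMT2D peaks of chromosome 17 in OCI-LY7, an established human cell line of diffuse large B-cell lymphoma of the germinal centre type. They were taken from the deposited list by chromosome alone, which gave 1468 of 24824 listed peaks (5.91%). The study made 1 chromatin immunoprecipitation library with an antibody against KMT2D and 1 input library without antibody, both from OCI-LY7 cells of wild-type genotype by the labels, fixed with formaldehyde. The single peak list belongs to the KMT2D library. There was no replicate, so no p-value was computed. The intervals below are 95% intervals that cover counting error over peaks, which share 1 library and are not replicates of a condition. They treat peaks as independent, which close neighbours may not be, so they can be too narrow.

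KMT2D, also called MLL4, is a methyltransferase that places the first methyl groups on lysine 4 of histone H3. It works in a complex with the demethylase UTX and is found mainly at enhancers, and also at promoters, of active genes. Its gene is often inactivated in germinal centre lymphomas. Chromosome 17 is known as a gene-rich chromosome. It carries the lymphoid factor IKZF3 and the cytokine-signalling factor STAT3 on the proximal part of the long arm. CD79B, a signalling chain of the B-cell receptor, and GNA13, which confines B cells to germinal centres, lie farther out. SOCS3, an inhibitor of cytokine signalling, lies towards the end of the long arm. Peaks were not assigned to genes, because no annotation or sequence of the hg19 build was used here, so regions are named by their hg19 positions and no sequence is printed.

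The chromosome was divided into 4 stretches by the position read as the summit of each peak. The short arm ended at 22.2 Mb and held 358 peaks. The proximal long arm, from 25.2 to 50 Mb, held 453, and the middle long arm, from 50 to 70 Mb, held 202. The distal long arm, from 70 Mb to the end of the last peak (bands q24 to q25), held 455 peaks. Every peak fell into 1 of these stretches, since none lay between 22.2 and 25.2 Mb, and no peak crossed a bound.

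KMT2D peaks were crowded towards the end of the long arm. The distal long arm made up 14.3% of the length of the 4 stretches and held 31.0% of the peaks. Its density was 40.8 peaks per Mb (exact Poisson interval 37.1 to 44.7). The proximal long arm had 18.3 peaks per Mb (16.6 to 20.03), the short arm 16.1 (14.5 to 17.9) and the middle long arm 10.1 (8.76 to 11.6). In order of density, the distal stretch thus came first and the middle stretch last, while the intervals of the proximal long arm and the short arm overlapped. The ratio of those 2 was 1.13 (0.984 to 1.30), a difference within counting error.

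Ratios of density set the distal long arm apart from each of its neighbours. Its density was 2.23 times that of the proximal long arm (1.96 to 2.55), 2.53 times that of the short arm (2.20 to 2.91) and 4.04 times that of the middle long arm (3.41 to 4.79), to which it is joined. Counted in bases covered by peaks, the same ratios were 2.40, 2.58 and 4.16. Peaks covered 2.88% of the distal long arm, against 1.12% of the short arm, 1.20% of the proximal and 0.692% of the middle long arm.

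Within stretches, peaks were unevenly placed over windows of 1 Mb. The fullest windows of the chromosome began at 74, 75 and 73 Mb, with 64, 62 and 61 peaks, and the window from 79 Mb followed with 56. The fifth, with 55 peaks, began at 7 Mb on the short arm. On the distal long arm the fuller windows formed 2 groups, from 72 to 77 Mb with 273 peaks and from 79 to 81 Mb with 110. The first group includes the window from 72 Mb, which held only 32. Between the 2 groups, the windows from 77 and 78 Mb held 23 and 27. The last 0.153 Mb before the end of the last peak still held 8 peaks.

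The rise into the distal crowd was abrupt. The 4 windows from 68 to 72 Mb, which span the bound at 70 Mb, held 17 peaks in all, and the next window held 32. The median full window held 54 peaks on the distal long arm (range 6 to 64, 11 windows), 17.5 on the proximal long arm (2 to 50, 24 windows), 13.5 on the short arm (1 to 55, 22 windows) and 7 on the middle long arm (0 to 34, 20 windows). Windows of 50 or more peaks numbered 6 on the distal long arm, 1 on the short arm, 1 on the proximal long arm and 0 on the middle long arm. Over the chromosome, 16 of 82 windows held 50% of the peaks. Leaving out the 4 distal windows among the 5 fullest, an alternative chosen after seeing the data, left 29.6 peaks per Mb there and 1.62 times the density of the proximal long arm.

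**Figure D1:**
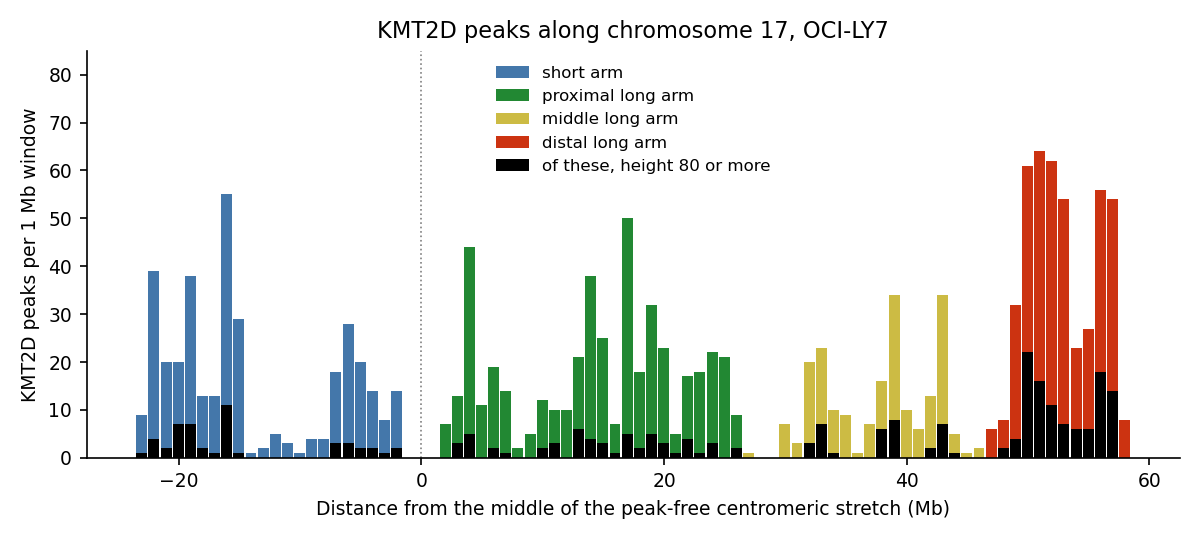
Peaks per 1 Mb window of chromosome 17, coloured by stretch, against the distance in Mb from the middle of the long peak-free stretch at the centromere (short arm at negative distances); black bars count peaks of height 80 or more. The distal long arm holds 4 of the 5 fullest windows, and the last window is 0.153 Mb long.

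Long stretches without a listed peak separated these crowds. The longest ran from 21454998 to 25620826, 4.17 Mb across the centromere. The second, of 2.81 Mb, lay between 50238422 and 53045541 on the middle long arm, which also had the third (68165809 to 69420008, 1.25 Mb) and the fourth (58755408 to 59940689, 1.19 Mb). The fifth ran from 9479412 to 10600511 on the short arm, over 1.12 Mb. It opened a sparse part of the short arm, where the 7 windows from 9 to 16 Mb held 20 peaks together. The 5 windows from 50 to 55 Mb held 11. A total of 5 windows were empty, of which 2 were on the middle long arm. Library depth is unknown, and an absence of listed peaks is not evidence of absent binding.

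Median peak height was close in all 4 stretches, while the tallest peaks were concentrated on the distal long arm. Median height, in the authors' units, was 45 on the short arm (interval of the median 43 to 49), 46 on the proximal (43 to 49), 47.5 on the middle (43 to 51) and 45 on the distal long arm (42 to 49). These medians differed by less than their intervals. Among the highest-scoring 50% of the list the medians were 61, 58.5, 60.5 and 72 in the same order, so that the distal median, level with the lowest over all peaks, was then the highest. This cut kept unequal parts of the stretches, at 10.2 of 16.1, 11.4 of 18.3, 6.20 of 10.1 and 22.1 of 40.8 peaks per Mb. Score and height had a Spearman correlation of 0.92 on the chromosome, so a cut by score also acts on height. How much of the change came from the cut was not tested. Over all peaks, the upper quartile was 74.5 on the distal long arm and 64 to 67.75 on the others. The height exceeded by 10% of the peaks was 108 there, against 85.3, 83.8 and 94.0 on the short, proximal and middle stretches.

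A peak was called tall at a height of 80 or more, the bound of the highest 10% of the list, which 10.3% of all listed peaks reached. On chromosome 17, 246 peaks (16.8%; exact binomial interval 14.9 to 18.8%) were tall. The distal long arm had 106 of them, or 23.3% of its peaks (19.5 to 27.5%). The share was 17.3% on the middle long arm (12.4 to 23.3%), 13.7% on the short arm (10.3 to 17.7%) and 12.4% on the proximal long arm (9.47 to 15.8%). The interval of the distal stretch overlapped that of the middle one and lay above the other two. The shares of the short, proximal and middle stretches overlapped in their intervals. All 4 shares lay above the background of 10.3%, which the intervals of the short and proximal stretches still included. That background also counts peaks lower than any listed on chromosome 17. The lowest height was 23 on this chromosome, which 89.7% of all listed peaks reached. Tall shares were not computed at a common floor, which would raise the background.

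At greater heights the gap widened. Of the 20 tallest peaks of the chromosome, 16 lay on the distal long arm and 4 on the proximal long arm. Peaks of height 100 or more numbered 60 on the distal long arm, at 5.38 per Mb (4.11 to 6.92), and 53 on the rest of the chromosome, at 0.791 per Mb. The ratio was 6.80 (4.62 to 10.03). For heights of 80 to 99 it was 3.18 (2.17 to 4.59), for 61 to 79 it was 1.91 (1.38 to 2.61), for 36 to 60 it was 2.11 (1.73 to 2.57) and for 35 or less it was 3.03 (2.49 to 3.69). The ratio was thus lowest for peaks of middle height. The interval of the highest class lay above those of all lower classes, while other neighbouring classes overlapped. Close medians went with a broader spread of heights on the distal long arm, where 34.5% of peaks were 35 or lower and 13.2% were 100 or higher. On the rest of the chromosome these shares were 30.7% and 5.23%, and over all listed peaks they were 44.1% and 4.13%. The distal share of low peaks thus lay above that of the rest of the chromosome and below that of the whole list. The last comparison has unlike floors, because the whole list reaches down to a height of 13 and the distal long arm only to 24. Of all listed peaks, 86.2% had a height of 24 or more and 55.9% a height of 36 or more. No share was computed at a common floor.

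**Figure D2:**
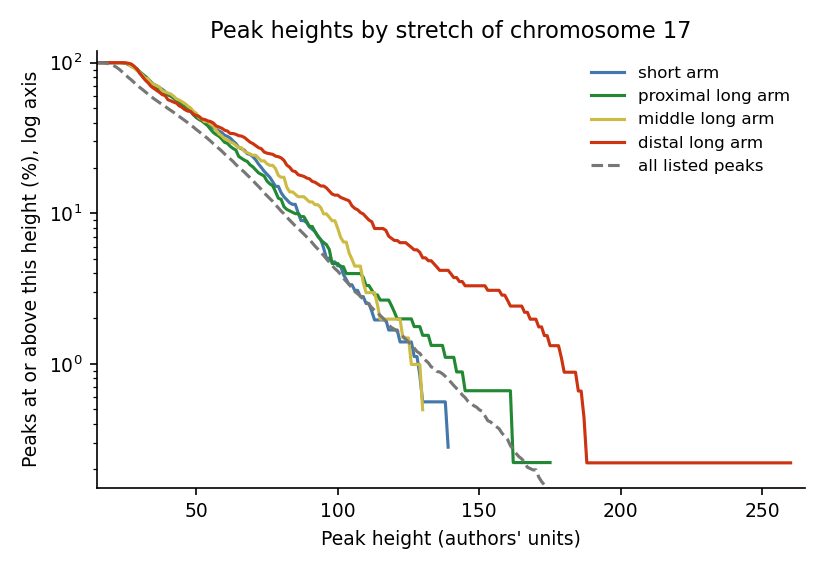
Percent of peaks at or above each height (log axis) against height in the authors' units, for the 4 stretches of chromosome 17 and, dashed, for all listed peaks. The curves of the stretches run together up to a height of about 60, and above 80 the distal long arm lies over the other 3.

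**Figure D3:**
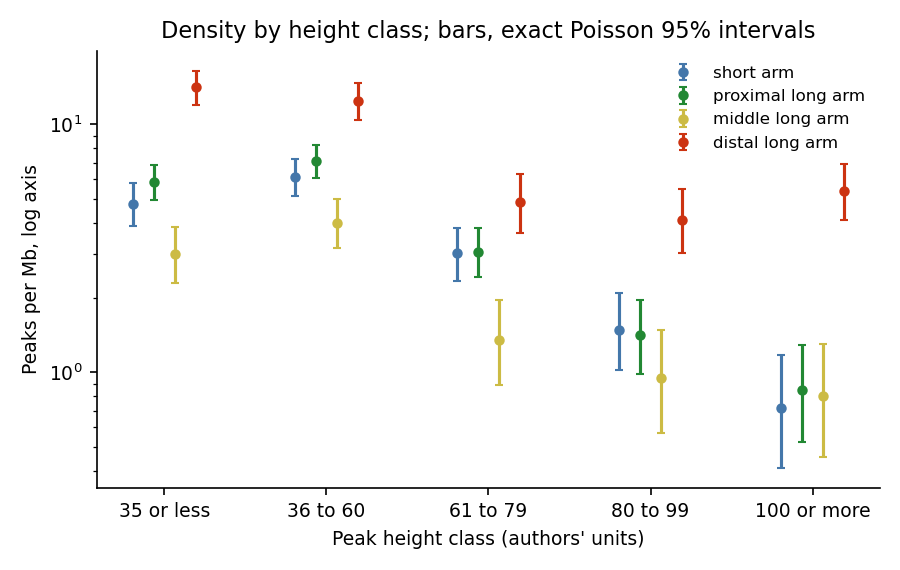
Peaks per Mb (log axis) in 5 classes of height for each stretch, with exact Poisson 95% intervals. For heights of 100 or more the short, proximal and middle stretches lie between 0.721 and 0.847 per Mb and the distal long arm at 5.38.

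The lower bound of the list was nearly the same along the whole chromosome. The lowest listed height was 23 on the proximal long arm and 24 on the other 3 stretches. For peaks of height 28 to 32, the median of the negative significance value that the authors deposited per peak was -18.2 on the distal, -18.3 on the middle, and -18.4 on both the proximal long arm and the short arm. The deposited score differed more. Its median ratio to height was 0.561 on the distal long arm, 0.582 on the middle, 0.585 on the proximal and 0.594 on the short arm. The median score itself was lowest on the distal long arm, at 25.1 (24.2 to 26.4). It was 27.1 on the proximal (26.2 to 27.9), 27.3 on the short arm (25.7 to 28.9) and 27.5 on the middle (25.4 to 29.05). The distal interval overlapped each of these. With tall defined by score in place of height, as the highest 10% of the list, the distal share was 18.9%, against 13.7% on the short arm, 12.9% on the middle and 11.3% on the proximal long arm. Scores are the authors' own and their scale is not stated. What made score per unit of height lower on the distal long arm was not tested.

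The tallest peak of chromosome 17 lay on the distal long arm at 73511448 to 73513316. It was 1868 bp wide, had a height of 260 and ranked 4th in the whole list. It was the only peak of the chromosome listed at minus infinity for significance. The next on this stretch lay at 79817705 to 79819697 (height 187), 79212482 to 79213960 (186), 73780090 to 73781825 (184) and 80406860 to 80409080 (179). All 5 belonged to clusters, of 2 to 7 peaks, in which peaks are joined when at most 12500 bp apart. They lie in the windows from 73, 79 and 80 Mb, which are among the 7 fullest of the chromosome. Their heights were 3.98 to 5.78 times the median of the stretch.

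On the proximal long arm the tallest peaks were mostly alone. The first, at 45972790 to 45974201, had a height of 175 and its nearest neighbour was 44.3 kb away. It was followed by 2 peaks of height 161, at 42385480 to 42386515 and at 47785018 to 47786031, with neighbours 15.3 and 29.3 kb away. A peak of height 144 at 41149971 to 41150889 was alone as well. The fifth, at 37617198 to 37618244 with a height of 141, had 1 neighbour in its cluster. The peak at 42385480 had a score of 101.6, above the 77.2 of the taller peak at 45972790, so that the orders by score and by height differed.

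The short arm and the middle long arm reached lower heights. The tallest peak of the short arm, at 4396207 to 4397106, had a height of 139 and lay in a cluster of 2. The other 4 were lone peaks, at 21116994 to 21118202 (height 138), 17494427 to 17495578 (129), 899693 to 900876 (128) and 7386645 to 7388474 (126). The lone peak at 17494427 stood 83.9 kb from its nearest neighbour. On the middle long arm the tallest peak, at 67577353 to 67578287, had a height of 130 and the second, at 55628514 to 55630102, had 129. Both lay in pairs. The third and the fourth were neighbours 0.512 kb apart, at 56405123 to 56407365 (height 125) and 56407877 to 56411325 (height 122). The fifth, at 66200935 to 66202379, reached 114.

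Median widths lay within each other's intervals. Median width was 605 bp on the short arm (541 to 679 bp), 613 bp on the proximal (555 to 673 bp), 628.5 bp on the middle (509 to 702 bp) and 572 bp on the distal long arm (486 to 649 bp). Among the highest-scoring 50% of the list the order turned, with 938.5 bp on the distal long arm against 828, 821.5 and 816.5 bp on the short, proximal and middle stretches. As for heights, this cut kept unequal parts of the stretches. Peaks of up to 200 bp, which made up 21.1% of the whole list, were 22.4% of the distal peaks (18.7 to 26.5%) and 18.3 to 18.8% of those in the other stretches. Peaks over 2000 bp, which were 2.21% of the whole list, numbered 32 on chromosome 17 (2.18%; 1.496 to 3.06%), a share close to that background. Of these, 13 lay on the distal long arm, 9 on the short arm and 5 each on the proximal and middle long arm.

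Wider peaks were taller, as a description of the 1468 peaks with a Spearman correlation of 0.88 between width and height. Among peaks of 801 to 2000 bp the median height was 83 on the distal long arm and 70 to 77 in the other stretches, while among those of up to 200 bp it was 29 or 30 in all 4. These medians describe the width classes and were given no interval. The widest peak of the chromosome, at 79479221 to 79482882, spanned 3661 bp with a height of 90. The widest of the proximal long arm, at 37023597 to 37027254, was nearly as wide, at 3657 bp, with a height of 64. Those of the middle long arm (56407877 to 56411325, 3448 bp) and the short arm (4850540 to 4853717, 3177 bp) had heights of 122 and 102.

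Peaks of the distal long arm lay closer together. The median distance to the nearest listed peak was 1.85 kb there (1.44 to 2.33 kb), against 4.78 kb on the short arm (2.99 to 5.99 kb), 6.37 kb on the middle (3.37 to 8.70 kb) and 7.29 kb on the proximal long arm (4.64 to 8.57 kb). The interval of the distal stretch lay below the other 3, which overlapped each other. Peaks with a neighbour under 500 bp away, which can be parts of 1 broader region, were 27.4% of the whole list and 27.7% of chromosome 17. The share was 31.2% on the distal long arm (27.0 to 35.7%), 29.7% on the middle (23.5 to 36.5%), 26.5% on the proximal (22.5 to 30.8%) and 23.5% on the short arm (19.2 to 28.2%), with overlapping intervals. Such close neighbours were lower than other peaks, with median heights of 37 and 49 on the chromosome.

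Joined at 12500 bp, 63.4% of all listed peaks fell into clusters of 2 or more. On chromosome 17 this held for 1015 peaks (69.1%; 66.7 to 71.5%), in 309 clusters, while 453 peaks were alone. The clustered share was 81.8% on the distal long arm (77.9 to 85.2%), 68.2% on the short arm (63.1 to 73.0%), 62.9% on the middle (55.8 to 69.5%) and 60.04% on the proximal long arm (55.4 to 64.6%). The distal share lay above the other 3, and those of the middle and proximal stretches were near the background. A stretch with more peaks per Mb has closer neighbours by number alone, and the clustered share was not adjusted for density.

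Clusters on the distal long arm held more peaks on average, and a greater share of them held a tall peak. They had 3.796 peaks on average and a median span of 9.56 kb, against 2.92 to 3.25 peaks and 4.83 to 7.97 kb in the other stretches. Over the whole list 22.3% of clusters held at least 1 tall peak, and on chromosome 17 this was so for 119 of 309 (38.5%; 33.1 to 44.2%). It was so for 55 of 98 distal clusters (56.1%; 45.7 to 66.1%). The numbers were 15 of 43 on the middle long arm (34.9%; 21.01 to 50.9%), 25 of 75 on the short arm (33.3%; 22.9 to 45.2%) and 24 of 93 on the proximal long arm (25.8%; 17.3 to 35.9%). The distal interval overlapped that of the middle long arm and lay above the other two. No adjustment was made for how many peaks a cluster had. Nor was any made for the floor of the list, which reaches down to a height of 13 elsewhere and to 23 on chromosome 17.

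Tall peaks were also more frequent among the lone peaks of the distal long arm. Of 83 lone peaks on the distal long arm, 31 were tall (37.3%; 27.0 to 48.7%). The share among lone peaks was 15.5% on the proximal long arm (10.5 to 21.6%), 14.9% on the short arm (8.93 to 22.8%) and 14.7% on the middle long arm (7.56 to 24.7%), and 13.2% over all lone peaks of the list. The distal interval lay above each of these, although the whole list reaches lower heights than chromosome 17, which was not adjusted for. Median height of lone peaks was 67 on the distal long arm (51 to 73) and 50 to 52 in the others, with overlapping intervals. Clustered peaks had medians of 42 to 44 in the 4 stretches.

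Clusters of 10 or more peaks held 5.28% of all listed peaks and 95 peaks of chromosome 17 (6.47%; 5.27 to 7.85%), in 7 clusters. Of these clusters, 4 lay on the distal long arm and 1 in each other stretch. The number rested on the joining distance, with 1 such cluster at 5 kb and 22 at 25 kb. The cluster with the most peaks, at 75396427 to 75491377, had 27 peaks over 94.95 kb, which covered 20.3% of that span. Most of its peaks were low, with a median height of 35, and 8 were at most 200 bp wide. A total of 5 reached a height of 80, led by a peak of 174 at 75436277 to 75438352 and its neighbour of 119 at 75440797 to 75442911. The other 3 lay at 75400474 to 75402472 (height 85), 75446918 to 75448650 (80) and 75461233 to 75462352 (85). Its widest spacing was 12.44 kb, just under the joining distance, and its median spacing was 1.93 kb.

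The other large clusters differed in make-up. On the distal long arm, 13 peaks at 76108698 to 76151441 had a median height of 48 and a tallest of 93, and 11 peaks at 76705236 to 76736201 had a tallest of 78. A cluster of 10 at 74256147 to 74275884 was the most closely packed of the 7, with 5.07 peaks per 10 kb. The short arm's largest, 13 peaks at 8041954 to 8127126, was spread over 85.2 kb and had no tall peak. Next there were 9 peaks at 4268473 to 4300735, with a median of 64, and 8 at 7737423 to 7762045, which covered 40.4% of their 24.6 kb.

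On the proximal long arm, 10 peaks at 27046380 to 27077460 reached a height of 129, 8 at 40687792 to 40739202 reached 71 and 7 at 40259786 to 40285913 reached 59. A second cluster of 7 on this stretch, at 42263678 to 42299008, was tied with the last by number and reached 96, with 2 tall peaks. On the middle long arm, 11 peaks lay at 61996600 to 62032436 with 3 tall ones, and 9 at 66196764 to 66255586, also with 3. The third cluster of the middle long arm, at 56405123 to 56430457, had only 7 peaks but covered 48.4% of its 25.3 kb, with a median height of 88 and 4 tall peaks. It holds the pair of tall neighbours and the widest peak of this stretch, given above.

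**Figure D4:**
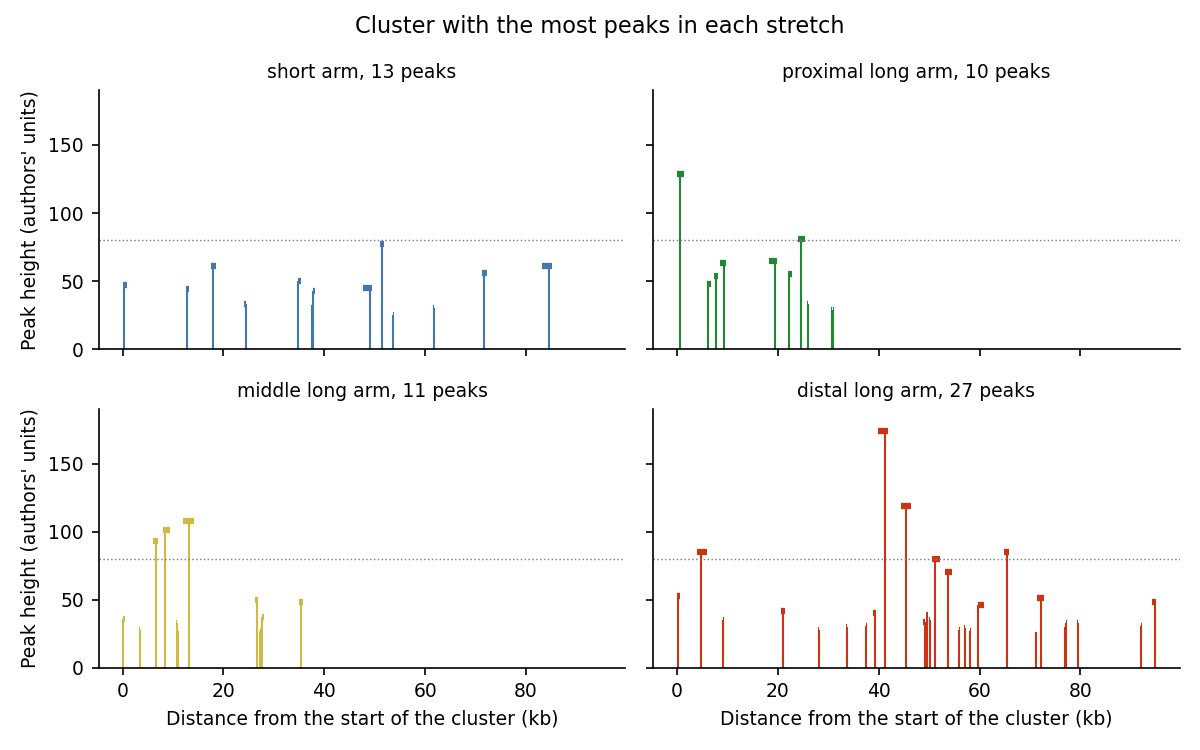
Height of each peak (authors' units) against distance from the start of the cluster in kb, for the cluster with the most peaks in each stretch; vertical lines stand at the summit, horizontal bars show the width, and the dotted line is a height of 80. The distal cluster of 27 peaks has its 2 tallest, of 174 and 119, near its middle among many peaks of 35 or lower.

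Set beside other chromosomes, chromosome 17 had 18.1 peaks per Mb between its first and last peak (17.2 to 19.1). This was 2.16 times the density of the other autosomes together (2.04 to 2.27). Without the distal long arm the ratio was 1.8005 (1.69 to 1.92), so the high density of the chromosome was not limited to that end. This ratio used the summed lengths of the remaining stretches, which leave out 22.2 to 25.2 Mb. The other autosomes were counted over their whole spans, so it is somewhat high beside 2.16. The density of all of chromosome 17 was 1.42 times that of chromosome 16 (1.31 to 1.53). It was 0.855 times that of chromosome 22 (0.781 to 0.936) and 0.679 times that of chromosome 19 (0.632 to 0.729). The distal long arm alone was 1.53 times as dense as the whole of chromosome 19 (1.37 to 1.70). That sets a stretch without a centromere against a span that crosses one. Over long-arm ends of equal length, the densities of chromosomes 17 and 19 were 40.8 and 29.8 peaks per Mb. The lowest listed heights were 22 on chromosome 16, 23 on 17, 24 on 22 and 26 on 19, and 15 over the other autosomes. At a common minimum height of 26, the ratio to the other autosomes was 2.66.

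In tall peaks, chromosome 17 (16.8%; 14.9 to 18.8%) was close to chromosome 19 (17.7%; 15.8 to 19.7%). Chromosome 16 had 14.2% (12.3 to 16.4%) and chromosome 22 had 10.7% (8.49 to 13.2%). The interval of chromosome 22, which was denser in peaks than chromosome 17, lay below that of chromosome 17. Density and the share of tall peaks thus did not follow the same order among these 4 chromosomes. Clustered shares were alike, at 69.1% on 17, 68.7% on 16, 69.7% on 22 and 70.4% on 19.

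The ends of the long arms were compared over the length of the distal stretch of chromosome 17, 11.2 Mb back from the last peak. Chromosome 17 had the highest density of the 23 chromosomes there (40.8), followed by chromosome 9 with 35.7 (32.3 to 39.4), 19 with 29.8 (26.7 to 33.1) and 16 with 24.8 (21.997 to 27.9). The intervals of 17 and 9 overlapped. Among the 22 autosomes the median end had 14.97 peaks per Mb. Relative to the rest of its own chromosome, the end of 17 was 2.82 times as dense, the fourth highest ratio, after 6.48 on chromosome 9, 6.23 on 21 and 3.58 on 5. Its share of tall peaks (23.3%) was the highest of the 23 ends, and the next was 17.2% on chromosome 19. Lowest listed heights ranged from 13 on chromosome X to 26 on chromosome 19, and these shares were not adjusted for that. The length was set from chromosome 17 itself, so these ranks describe this list only.

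**Figure D5:**
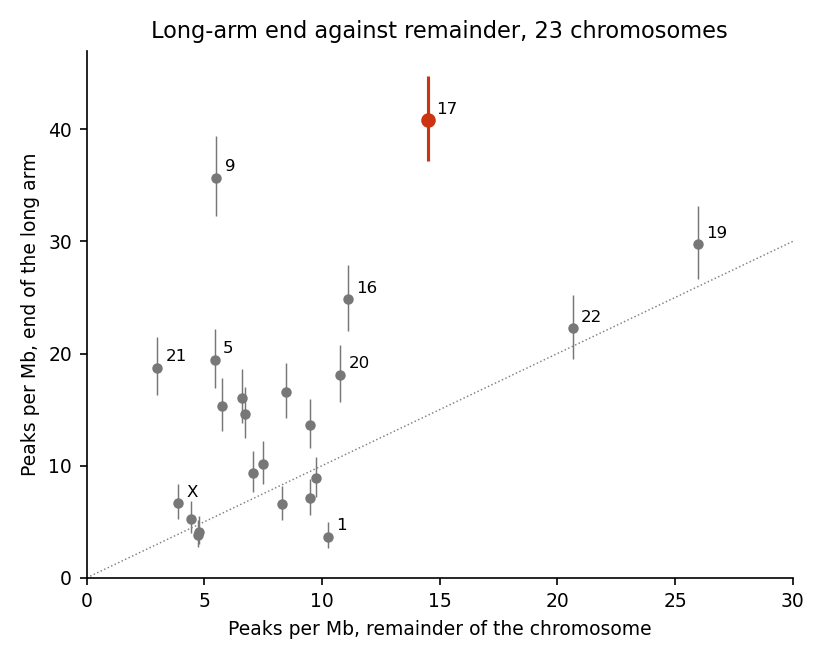
Peaks per Mb in the 11.2 Mb before the last peak of the long arm against peaks per Mb on the remainder, for chromosomes 1 to 22 and X (10 are labelled), with exact Poisson 95% intervals; the dotted line marks equal density. Chromosome 17, in red, has the highest end at 40.8, and chromosome 9 follows at 35.7.

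In relation to its number of genes, chromosome 17 lay within the range of the other autosomes. A RefSeq table of the GRCh38.p14 assembly, used only to count names by chromosome, lists 1169 protein-coding genes on chromosome 17, which gives 1.26 KMT2D peaks per gene. Over the 22 autosomes the ratio ran from 0.997 to 1.58, with a median of 1.32. Chromosome 19 had 1.08 and chromosome 22 had 1.58. Peak density and coding genes per Mb rose together over the 22 autosomes (Spearman's rho 0.97, Pearson's r 0.97). Both measures are divided by the same chromosome span, and the correlation describes 1 library.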

How the data were processed

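Per the labels' protocols, chromatin of formaldehyde-fixed OCI-LY7 cells was precipitated with an in-house KMT2D antibody. The authors deposited 1 list of peaks with 11 columns and no header. The submitters' processing notes name CASAVA 1.8.2 and the hg19 build; aligner, peak caller, threshold and any input subtraction are not stated in the sources at hand. Columns were read from their values: the authors' signal column, a whole number, is called height; a deposited score and a negative significance value, also handled as a score, rank peaks; a deposited percent column gives the summit's place within the peak, recovered within 1 percentage point. Whether heights were normalized is not stated, and depth is unknown. Whether positions count from 0 or 1 is not stated either.

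Density used the length of each stretch, or, for whole chromosomes, the span from first to last peak. Peaks at most 12500 bp apart were joined. Intervals are exact Poisson, exact binomial, exact conditional (ratios) or from order statistics (medians), at 95%. In each stretch the 5 tallest peaks, the widest and the 3 largest clusters (ties by start) are named, with the 5 longest gaps and 5 fullest windows of the chromosome; other items were named after their values were seen. The regions, bounds and lists were chosen with earlier results of these data known. Peaks near genes, promoter shares and sequences need hg19 annotation and were not analysed here. Functions were tested on simulated data. Analyses used Python 3.11.15, scipy 1.17.1, numpy 2.4.6, matplotlib 3.10.9 and pandas 2.3.3.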

Additional observations from a re-analysis of the deposited data

How the results depend on the processing

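In the absence of a test, values were compared with the counting interval of the value reported, and numbers of clusters with a margin of 1.5 times. Among 93 alternative values, 32 stayed within these bounds and 61 lay outside. These counts do not measure robustness, because some outcomes were set by the alternative itself. Covered bases per Mb were held to intervals in peaks per Mb, which is another unit. Densities after a cut by score, and shares of the highest 5% by height, could only be smaller. The ratios stayed above 1 under each alternative, but orders between stretches turned in places: among the highest-scoring 50% the distal long arm went from the smallest to the greatest median width and from the joint lowest to the highest median height, and for the highest 5% by height the short arm and the proximal long arm changed places in tall share. After merging, the distal long arm was joint highest with the middle one in median height and second in median width, and for tall peaks by score the short arm passed the middle long arm. Values by stretch are given in the order short arm, proximal, middle and distal long arm. Keeping the highest-scoring 50% of peaks gave densities of 10.2, 11.4, 6.20 and 22.1 per Mb, median heights of 61, 58.5, 60.5 and 72, median widths of 828, 821.5, 816.5 and 938.5 bp, clustered shares of 49.3, 39.7, 41.1 and 60.2%, a distal to proximal ratio of 1.94, a ratio of chromosome 17 to the other autosomes of 2.56, and 0 clusters of 10 or more. The highest-scoring 25% gave densities of 5.18, 5.32, 3.10 and 13.4, and 2.67 for chromosome 17 to the other autosomes. Merging peaks under 500 bp apart gave densities of 14.1, 15.6, 8.45 and 33.8, median widths of 708, 710.5, 757 and 731 bp, clustered shares of 59.6, 46.9, 45.6 and 75.1%, a distal median height of 51, a distal tall share of 27.9% (this last alternative was chosen after seeing the data) and 2 clusters of 10 or more. Covered bases, in kb per Mb, were 11.2, 12.01, 6.92 and 28.8. A common minimum height of 26 gave 2.66 for chromosome 17 to the other autosomes. Joining at 5 kb gave clustered shares of 50.8, 45.5, 47.5 and 65.1% and 1 cluster of 10 or more; at 25 kb, 77.4, 76.2, 74.3 and 89.7% and 22. Tall shares were 5.87, 6.40, 9.90 and 15.2% for the highest 5% by height, and 18.9% on the distal long arm for the highest 10% by score. Chosen after seeing the data, the distal to proximal ratio was 1.62 without the 4 distal windows among the 5 fullest and 3.09 between medians of full windows. Smaller counts follow where fewer peaks enter, and taller medians where score, which rose with height, sets the cut. Merged peaks take the greatest height and the full span of their parts. By definition, a shorter joining distance cannot raise the clustered share, and a longer one cannot lower it. For other shifts the cause was not tested. The distal long arm had the highest density, clustered share and, wherever it was computed, tall share under each alternative run for them. The middle long arm had the lowest density under each, while the lowest clustered share was on the proximal or on the middle long arm, depending on the alternative. Promoter shares were not run. No paired analysis was possible because there is 1 ChIP library.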

Other observations

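The most frequent peak width on chromosome 17 was 169 bp, which 12 peaks had, while each of the widths up to 5 bp shorter or longer occurred 0 to 6 times. Their median height was 30.5. Summits stood near the middle of the peaks, at a median of 45.2% of the way from start to end on the short arm and 47.3, 47.3 and 47.7% on the proximal, middle and distal long arm.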
